A study of Homo sapiens with 24 samples.

Results

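The regions described here are 866 dispersed copies of Y RNA sequence in the human genome. They are the intervals annotated as Y RNA in the small RNA table, other than the 4 genes RNY1, RNY3, RNY4 and RNY5, with a length of at most 250 bp. The table held 175946 features in all and 871 Y RNA intervals. The 5 intervals left out were the 4 genes and 1 interval of 283 bp (chr19:47727492-47727774, in EHD2). Counts came from HEK293, an established human embryonic kidney cell line of wild-type genotype per the labels, after overexpression of eGFP (called GFP here, the control), LMNA, LMNB1 or LMNB2. LMNA encodes the A-type lamins, and LMNB1 and LMNB2 encode the B-type lamins, filament proteins of the layer beneath the inner nuclear membrane. Each of the 4 groups had 3 small RNA libraries, prepared from RNA extracts in which small RNAs were enriched, and 3 ATAC libraries, made from separately collected cells, 24 libraries in all. ATAC-seq counts DNA fragments released by a transposase, which cuts open chromatin more often. The vector, its promoter, the duration and the amount of overexpression were not given in the sources used here. The tables list non-coding features, so neither the lamin transcripts nor cell identity markers were analysed here. Nothing in the labels says whether replicates came from separate cultures, so p-values measure the spread between these libraries, which may be technical.

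Y RNAs are short non-coding RNAs made by RNA polymerase III from promoters that lie upstream of the transcribed sequence. They are bound by the Ro60 and La proteins and are known for roles in RNA quality control and the initiation of DNA replication. The genome also carries many copies that arose when Y RNAs were copied into DNA and inserted elsewhere. Such a copy usually lacks the upstream promoter of the gene it came from. A read from a copy with few differences from its source may fit both places, and how such reads were assigned was not given in the sources used here.

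The copies were spread over 24 chromosomes, with 83 on chromosome 1 and 1 on chromosome Y. Their intervals were 121 to 199 bp long, with a median of 152 bp. For 20 of the 63 copies that RefSeq names, the interval reached exactly 25 bp beyond the RefSeq gene on each side. The 2 longest were 199 bp (chr14:58441819-58442017, in KIAA0586) and 190 bp (chr10:90880015-90880204, in RPP30), with means of 0.417 and 0.0833 small RNA counts per library. The 283 bp interval beyond the length limit had a mean of 284 counts. No Y RNA interval had a length between 199 and 283 bp, so the limit of 250 bp split no run of similar lengths. By RefSeq, 63 copies overlapped a named Y pseudogene, of which 15 were RNY1P, 14 RNY3P, 27 RNY4P and 7 RNY5P, and 803 overlapped none. A total of 483 copies (55.8%) lay within a protein-coding gene, 206 on the same strand as the gene, 196 on the opposite strand and 81 with the strand not determined. Another annotated feature of the table overlapped 329 copies, a long non-coding RNA in 276 cases, so reads there may be shared with that feature. Of 839 copies with a distance to a RefSeq gene start, 18 were within 1 kb of one and 612 were more than 10000 bp away. Whether these positions were exonic or intronic was not analysed here. Copies are named below by their RefSeq symbol, or otherwise by the protein-coding gene they lie in or the gene with the nearest start, with coordinates of GRCh38.

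Most copies had few small RNA counts, and a small number had as many as a Y RNA gene. Of the 866 copies, 742 had a count in at least 1 of 12 libraries, 347 (40.1%) had one in every library, and 124 had none. A count of 0 allows up to 3 counts, which is 0.0169 to 0.0258 CPM (counts per 1000000 of the scaled library size) depending on the library, for counting error only. The mean per library reached 10 counts for 249 copies, 100 counts for 66 and 1000 counts for 19. Over all features of the table, 31.3% had a count in every library and 85.6% had any, beside 85.7% of the copies. Of the 16793 other features of at most 250 bp, a set chosen after the values were seen, 12.6% had a count in every library and 56.2% had any. The RNY4 pseudogenes were the most often counted group, with 22 of 27 at a mean of at least 10 counts. The same level was reached by 5 of 14 RNY3 pseudogenes, 2 of 7 RNY5 pseudogenes, 1 of 15 RNY1 pseudogenes and 219 of 803 copies without a RefSeq Y name. The most counted RNY1 pseudogene had a mean of 11.9 counts and the most counted RNY5 pseudogene 458, against 19687 for RNY3P6 and 80642 for RNY4P7. Copies in a gene reached a mean of 10 counts in 31.6% of cases on the gene's strand and in 33.7% on the opposite strand. Outside protein-coding genes the share was 24.5%.

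**Figure D1:**
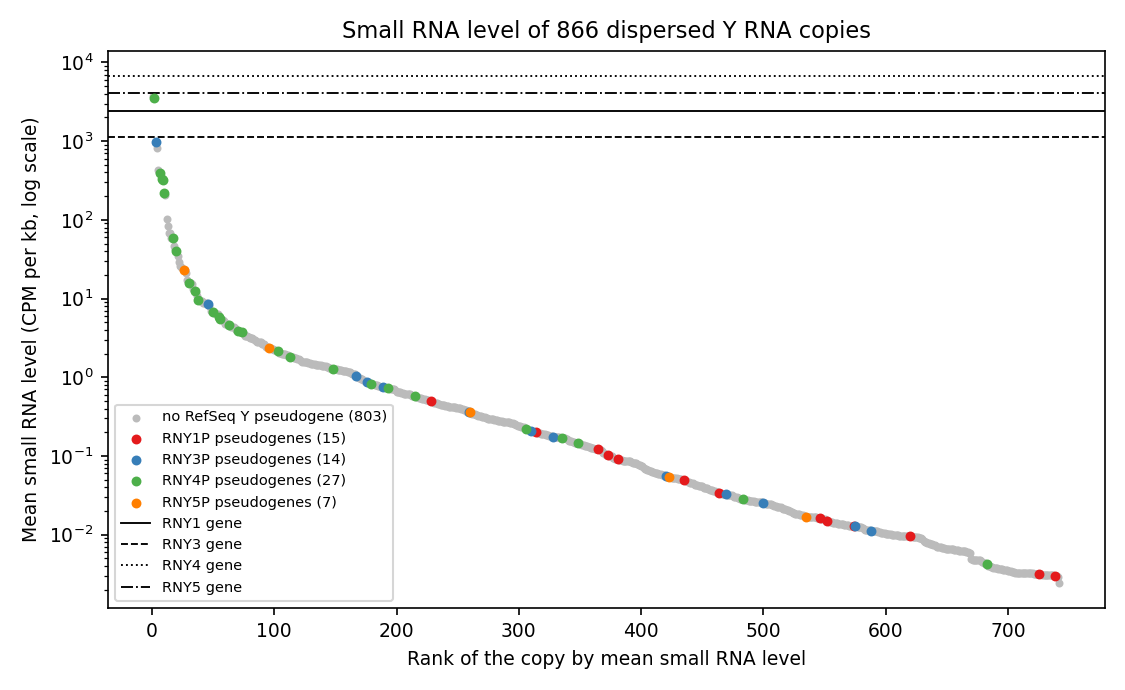
Mean small RNA level over 12 libraries, in CPM per kb of interval on a log scale, for the 742 copies with counts, ranked from high to low and coloured by RefSeq pseudogene family, with the level of each Y RNA gene as a line. The first 2 copies lie above the RNY1 and RNY3 lines, RNY3P6 lies just below RNY3, and most copies lie below 1 CPM per kb.

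The copies together were assigned nearly as many counts as the 4 genes. Their summed count was 0.803 to 1.05 times that of RNY1, RNY3, RNY4 and RNY5 in the same library. Some of these counts may be reads that also fit a Y RNA gene, which was not tested. The levels below are therefore assigned counts, and how much RNA came from the copies themselves is not known. The copies' sum rested on few places: the 2 highest copies held 47.6% to 65.5% of it, and the 10 highest held 82.2% to 90.4%. Per length, the highest copy lay in CCNL1, the cyclin L1 gene, on the opposite strand (chr3:157153523-157153665), at 3772 CPM per kb. The second was RNY4P7 in WDR33, which encodes a subunit of the mRNA 3′ end processing complex (chr2:127798879-127799023), at 3537 CPM per kb. The genes were at 6715 (RNY4), 4124 (RNY5), 2400 (RNY1) and 1116 CPM per kb (RNY3), so both copies were above RNY1 and RNY3 and below RNY5 and RNY4. RNY3P6 in TM9SF2 (chr13:99536294-99536421) was at 988 CPM per kb, and a copy in KLHL13 (chrX:117914219-117914370) was at 827. The next 4 were copies in FNBP4 (chr11:47726869-47727017) at 431 and DOCK1 (chr10:126920782-126920928) at 404, RNY4P17 in CBR4 (chr4:169005224-169005369) at 393, and RNY4P5 (chr8:123044692-123044837) at 330 CPM per kb. Other annotated features overlapped the copies in CCNL1 and FNBP4, RNY3P6, RNY4P17 and RNY4P5, so reads there may be shared. The same holds for the genes RNY4 and RNY5. RNY4P7 and the copies in KLHL13 and DOCK1 had no such overlap.

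The CCNL1 copy had 416.9, 376.5 and 588.1 CPM in the GFP libraries, and 484.8, 606.3 and 534.0 CPM in the LMNA libraries. It had 486.6, 533.3 and 483.2 CPM with LMNB1, and 578.3, 744.1 and 641.5 CPM with LMNB2. GFP replicate 3 was higher than the other 2 GFP libraries and within the LMNB2 range, so the LMNB2 and GFP groups overlapped. The LMNB2 difference was 0.51 ± 0.25 (log2 fold change ± SE), and its adjusted p was 0.26 (edgeR quasi-likelihood test). RNY4P7 had 387.6, 353.0 and 644.7 CPM with GFP, 405.8, 564.7 and 575.1 with LMNA, 457.2, 487.2 and 441.3 with LMNB1, and 551.7, 701.5 and 584.1 with LMNB2. Here too GFP replicate 3 stood above the other GFP libraries, and the LMNB2 difference of 0.41 ± 0.27 did not pass (edgeR quasi-likelihood adjusted p = 0.418). Within a library the count of the CCNL1 copy was 1.23 to 1.51 times that of RNY1, with a coefficient of variation of 6.23% over 12 libraries, and 1.83 to 5.31 times that of RNY3. Its ratio varied by 31.4% against RNY3, 12.4% against RNY4 and 20.1% against RNY5. For RNY4P7 the ratio to RNY1 varied by 9.93% and the ratio to RNY4, the gene its symbol names, by 15.7%. These ratios were computed after the values were seen and carry no test.

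RNY3P6 and the KLHL13 copy, on different chromosomes, had almost the same count in each library. Their counts differed by at most 2.22% in any library, with a median of 0.459%. RNY3P6 had 144.5, 87.8 and 93.6 CPM with GFP, 101.7, 114.1 and 150.7 with LMNA, 137.6, 141.8 and 147.9 with LMNB1, and 117.5, 117.0 and 163.2 with LMNB2. No other pair among the 174 copies with at least 10 counts in every library agreed within 5% in all 12. Whether these are 2 sources of RNA or 1 set of reads assigned to both places was not tested. RNY3P6 had 0.624 to 0.845 times the count of RNY3, the gene its symbol names, with a coefficient of variation of 9.20%. The FNBP4 copy had 0.0552 to 0.0727 times the count of RNY4, with a coefficient of variation of 8.05%. Its ratio varied by 16.6% against RNY1, 17.1% against RNY3 and 13.6% against RNY5. From which gene a copy came was not tested.

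**Figure D2:**
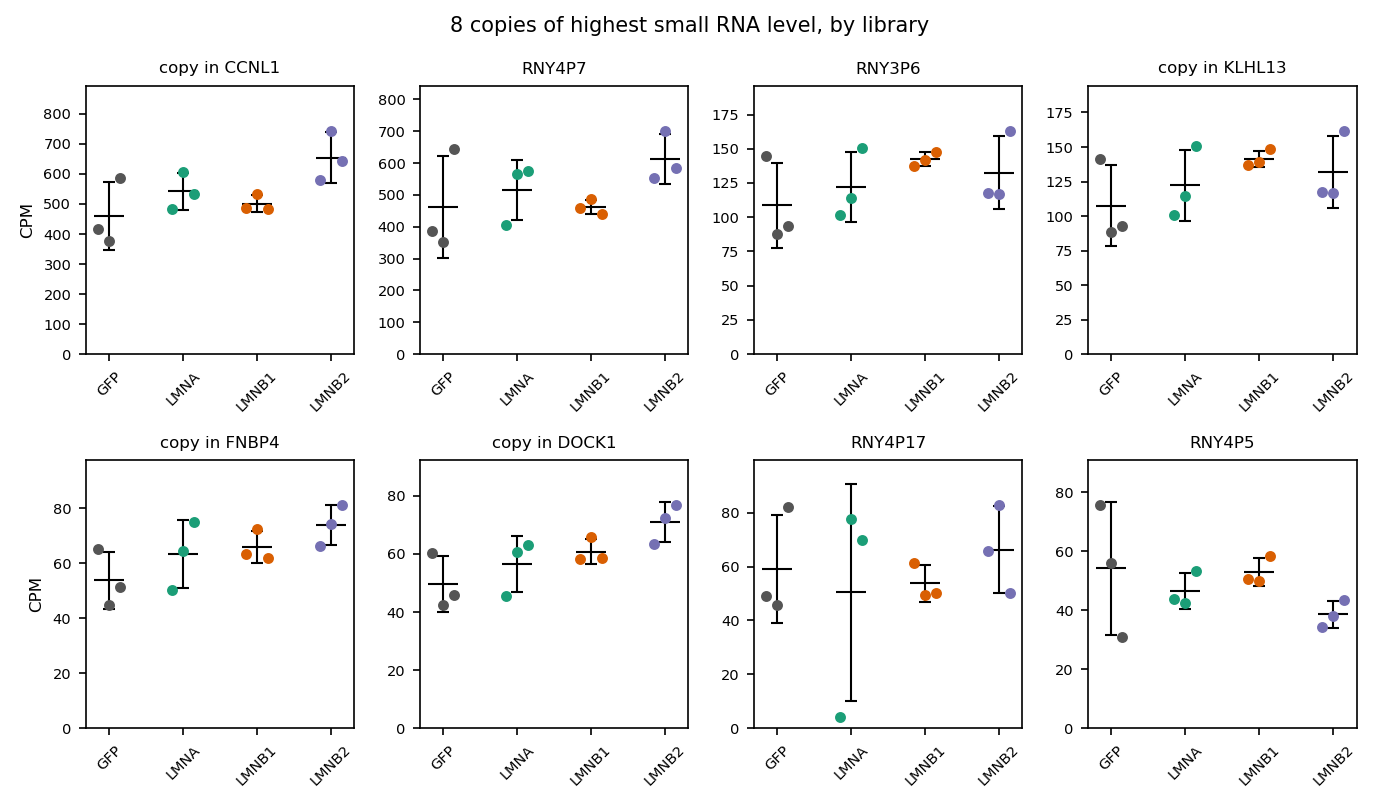
Small RNA level in CPM for the 8 copies of highest level, with 1 point per library, a horizontal mark at the group mean and bars of 1 SD (n = 3). RNY4P17 is at 4.19 CPM in LMNA replicate 1 and at 45.9 CPM or more in the other 11 libraries, and the panels of RNY3P6 and the copy in KLHL13 are nearly identical.

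LMNA replicate 1 stood apart from the other libraries at a subset of copies. Among the 66 copies with a mean of at least 100 counts, 8 were over 4-fold lower there than the median of the other 11 libraries, and 1 was over 4-fold higher. GFP replicate 3 and LMNA replicate 3 were each over 4-fold lower at the same 2 copies (chr15:37050803 and chr18:12760692), and the other 9 libraries departed at none. The higher one was RNY4P20, with 50414 counts against 1973 to 5595 elsewhere. RNY4P17 had 673 counts against 5726 to 14588, and a copy at chr11:76404115 had 12 against 361 to 1034. These copies were singled out after their values were seen. The cause was not tested. Leaving out LMNA replicate 1 changed the summed level of the copies against GFP from 0.23 to 0.27 on the log2 scale.

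Summed over all copies, the small RNA levels of the groups overlapped. The sum was 1691, 1344 and 1955 CPM in the GFP libraries and 1827, 1931 and 2036 CPM with LMNA. It was 1742, 1839 and 1754 CPM with LMNB1, and 1843, 2206 and 2073 CPM with LMNB2. GFP replicate 3 was above at least 1 library of each lamin group. The log2 differences from GFP were 0.23 for LMNA (exact two-sided permutation p = 0.3), 0.11 for LMNB1 (exact permutation p = 0.7) and 0.31 for LMNB2 (exact permutation p = 0.2), where 3 against 3 libraries cannot give less than 0.1. These 3 comparisons share the GFP libraries, and their Benjamini-Hochberg adjusted permutation p-values were 0.45, 0.7 and 0.45. With library totals in place of trimmed-mean scaling the differences were 0.29 (LMNA), 0.32 (LMNB1) and 0.59 (LMNB2), each with an exact permutation p of 0.4, and the GFP libraries spread from 1066 to 2557 CPM. Leaving out 1 library at a time gave 0.09 (without GFP replicate 2) to 0.36 (without GFP replicate 3) for LMNA, -0.03 to 0.24 for LMNB1 and 0.16 to 0.43 for LMNB2, with the extremes at the same 2 libraries. Without the 10 copies of highest sum, an alternative added after seeing the data, the other 856 copies were at 300.8, 215.2 and 256.3 CPM with GFP and at 204.2, 211.1 and 212.8 CPM with LMNB2. Each LMNB2 library was then below each GFP library, a difference of -0.29 on the log2 scale with an exact permutation p of 0.1, the smallest possible. With DESeq2 size factors as the scaling that difference was -0.27, with an exact permutation p of 0.3, and the groups overlapped. With library totals in place of trimmed-mean scaling it was 0.0018, with an exact permutation p of 1, so the lower level depended on the scaling.

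Copy by copy, 273 of the 866 (31.5%) had enough counts for the edgeR quasi-likelihood test, which was fitted on all 33893 features that passed the filter on low counts. The other 593 copies have no test. With LMNA, 0 copies passed an adjusted p of 0.05, and 20 had an unadjusted p below 0.05. Over all features 0% passed in that contrast and 5.46% had an unadjusted p below 0.05, against 7.33% of the copies. With LMNB1, 0 copies passed and 23 had an unadjusted p below 0.05 (8.42%). Of all features 0.0384% passed and 5.51% had an unadjusted p below 0.05. DESeq2 also called 0 copies in both contrasts. The lowest edgeR adjusted p over the copies was 0.742 with LMNA and 0.777 with LMNB1. Libraries of the lamin group and GFP did not overlap for 16 copies with LMNA (9.5% of all features) and 21 with LMNB1 (10.1% of all features), which is 5.86% and 7.69% of the tested copies.

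With LMNB2, 7 copies passed the test, 2 higher and 5 lower than GFP. That is 2.56% of the tested copies, beside 2.66% of all features, so the share called was close to the background. Of all features, 1.91% were called higher and 0.752% lower. DESeq2 called 6 copies with LMNB2, 1 higher and 5 lower, of which only 4 were among the 7. That is 2.2% of the tested copies, beside 2.81% of all features. The 7 calls are few, and no test compared the direction of the copies with that of the rest. An unadjusted p below 0.05 was found for 69 copies, 12 higher and 57 lower, which is 25.3% beside 19.9% of all features. The LMNB2 and GFP libraries did not overlap for 13 of the 273 tested copies on the higher side, beside 12.1% of all features. On the lower side they did not overlap for 41 of the 273, beside 10.2% of all features. The median log2 fold change of the 273 copies was -0.29, beside -0.04 for all features. It was -0.01 for the 66 copies with a mean of at least 100 counts and -0.39 for the 207 with fewer. The medians of all features at these count levels were not analysed here. With library totals in place of trimmed-mean scaling the copies' median was -0.05 and that of all features 0.21.

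The GFP libraries varied most. Their scaling factors were 0.631, 0.905 and 1.31 in replicates 1 to 3, against 0.878 to 1.16 in the other 9 small RNA libraries. Relative to each copy's GFP mean, the median copy was at 0.05, -0.30 and 0.29 on the log2 scale in GFP replicates 1, 2 and 3, and at -0.20, -0.13 and -0.18 in the LMNB2 libraries, all within the GFP range. Without GFP replicate 3, 24 copies were called with LMNB2, 8.70% beside 5.82% of all features in that fit, and the copies' median turned to 0.06. Without LMNB2 replicate 1 or 2 the count was 0, beside 0.462% and 0.138% of all features, and without LMNB2 replicate 3 it was 1 (0.162% of all features). It was 3 without LMNB1 replicate 1 or 3 (1.17% and 1.55% of all features), 2 without LMNB1 replicate 2 (1.06%), and 11 without LMNA replicate 3 (2.33%). With library totals as the scaling, or with only the 6 libraries compared, 0 of the 7 calls were left, beside 0.832% and 0.0742% of all features.

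**Figure D3:**
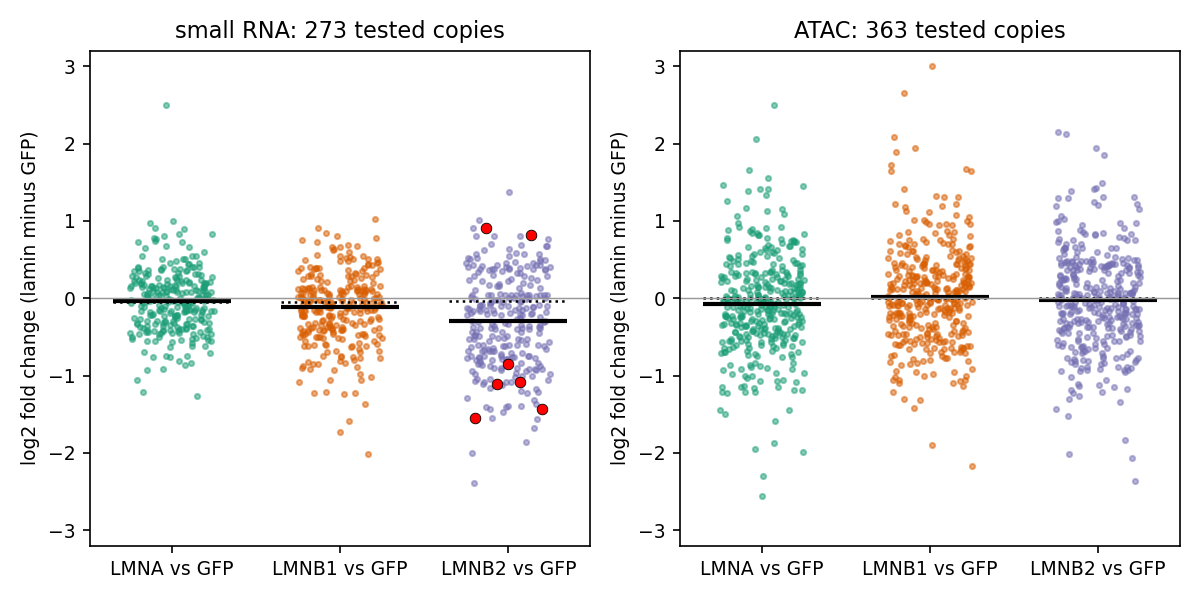
log2 fold changes of each tested copy against GFP in small RNA (left) and ATAC (right), with 1 point per copy, red points for copies that passed an adjusted p of 0.05, a solid line at the copies' median and a dotted line at the median of all features. The 7 red points are all in the LMNB2 small RNA column, where the solid line is at -0.29, and the ATAC panel has none.

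None of the 7 copies called with LMNB2 has a RefSeq Y pseudogene name, as is true of 242 of the 273 tested copies, and none overlaps another annotated feature, as for 173 of the 273. Of the 7, 6 had a mean below 100 counts, as did 207 of the 273. The copy of lowest p lies in NRDC, the nardilysin peptidase gene (chr1:51865608-51865734), and had 17, 22 and 27 counts with GFP and 7, 8 and 9 with LMNB2. It had 12, 11 and 12 counts with LMNA and 15, 21 and 17 with LMNB1. In CPM each LMNB2 library was below each library of the other groups. The LMNB2 difference was -1.55 ± 0.28 (edgeR quasi-likelihood adjusted p = 0.013), from 0.153 ± 0.00789 CPM with GFP to 0.0524 ± 0.0109 CPM with LMNB2 (SD, n = 3). With LMNA the difference was -1.05 ± 0.26 and did not pass (edgeR quasi-likelihood adjusted p = 0.742).

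The copy in SNTB2, the gene of the adaptor protein beta-2-syntrophin (chr16:69191098-69191247), was the most counted of the 7. It had 2.29, 1.93 and 2.62 CPM with GFP, 2.69, 3.49 and 3.21 with LMNA, 2.75, 3.39 and 2.86 with LMNB1, and 4.17, 4.50 and 4.22 with LMNB2. All LMNB2 libraries were above all other libraries, and the copy rose by 0.91 ± 0.19 on the log2 scale (edgeR quasi-likelihood adjusted p = 0.0217). The other copy called higher lies in SLC27A2, a fatty acid transporter and acyl-CoA synthetase gene (chr15:50221863-50222021). It had 0.258, 0.257 and 0.259 CPM with GFP and 0.368, 0.563 and 0.441 with LMNB2, a rise of 0.82 ± 0.21 (edgeR quasi-likelihood adjusted p = 0.0429). Its LMNA and LMNB1 libraries, at 0.281 to 0.394 and 0.325 to 0.496 CPM, were also above the GFP libraries but did not pass.

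The remaining 4 copies fell. The copy in GNB5, a G protein beta subunit gene (chr15:52162726-52162877), had 0.713, 0.485 and 0.744 CPM with GFP and 0.302, 0.250 and 0.348 with LMNB2, a difference of -1.11 ± 0.25 (edgeR quasi-likelihood adjusted p = 0.0308). The copy in INO80D, the gene of a subunit of the INO80 chromatin remodelling complex (chr2:206025568-206025722), had 0.919, 0.507 and 0.901 CPM with GFP and 0.368, 0.275 and 0.455 with LMNB2, a difference of -1.09 ± 0.26 (edgeR quasi-likelihood adjusted p = 0.0406). In both, the LMNB2 libraries were below the GFP libraries, while 1 LMNA library was above the highest GFP library. The copy in RIOK3, an atypical kinase gene (chr18:23456346-23456492), had 0.430, 0.397 and 0.592 CPM with GFP and 0.217, 0.307 and 0.270 with LMNB2, a difference of -0.85 ± 0.20 (edgeR quasi-likelihood adjusted p = 0.0363). The copy nearest to SOS1, the gene of a Ras guanine nucleotide exchange factor, lies 3933 bp from its start (chr2:39128801-39128952). It had 16, 11 and 16 counts with GFP and 7, 5 and 5 with LMNB2, a difference of -1.44 ± 0.37 (edgeR quasi-likelihood adjusted p = 0.0483).

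**Figure D4:**
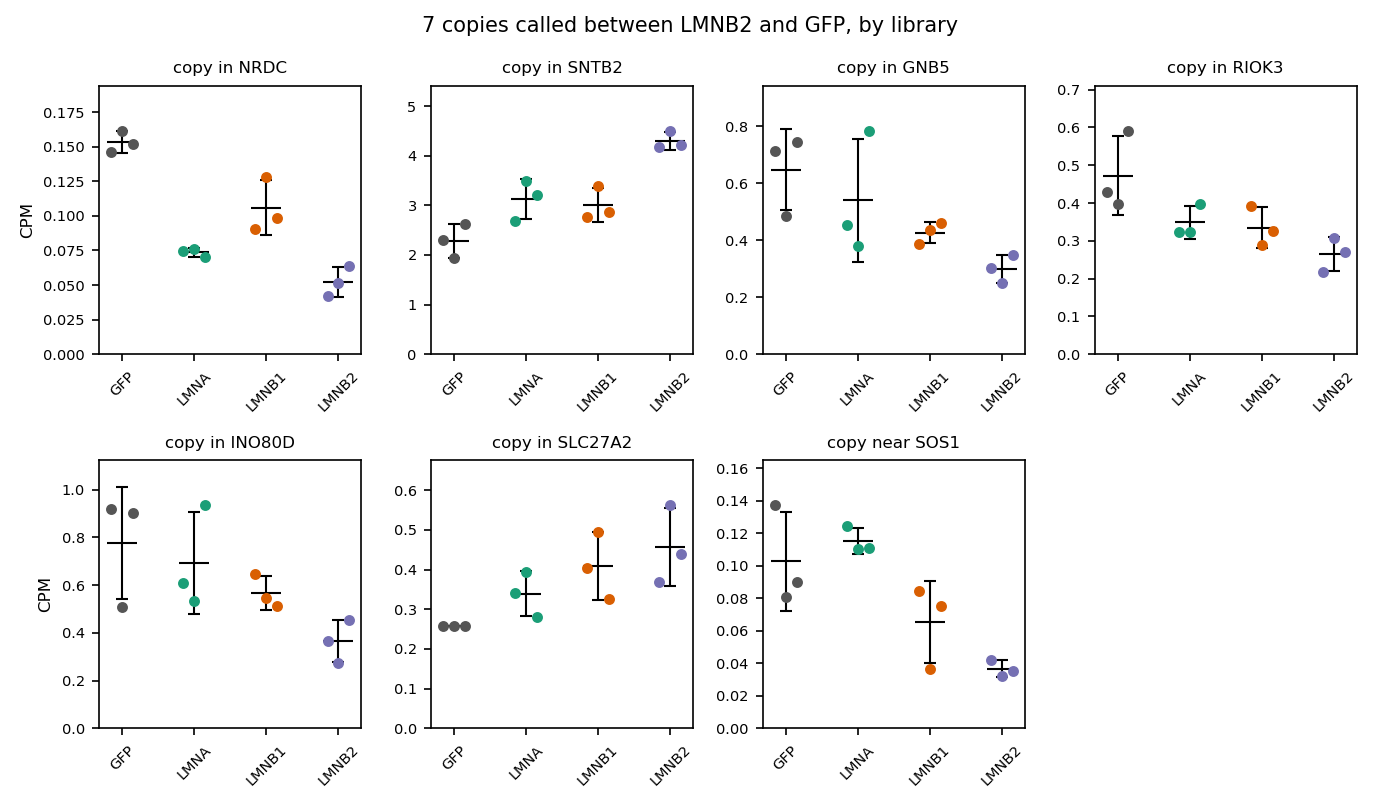
Small RNA level in CPM of the 7 copies called between LMNB2 and GFP, with 1 point per library, a horizontal mark at the group mean and bars of 1 SD (n = 3). The LMNB2 points lie apart from the GFP points in each panel, with the copies in SNTB2 and SLC27A2 higher and the other 5 lower.

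Asked whether any of the 4 groups differed, the edgeR test called 1 copy, again the one in NRDC (adjusted p = 0.0223), which is 0.366% of the tested copies beside 1.68% of all features. An unadjusted p below 0.05 was found for 43 copies (15.8%), beside 15.9% of all features. The count was 5 with DESeq2 (2.61% of all features) and 0 with library totals (0.794%). It was 21 without GFP replicate 3, beside 9.02% of all features, and 8 without LMNA replicate 2, beside 1.1%. It was 3 without GFP replicate 2 (1.48% of all features), none of them the NRDC copy, and 3 without LMNA replicate 3 (1.25%). It was 2 without GFP replicate 1 or LMNA replicate 1 (2.67% and 0.816%). Without LMNB1 replicate 3 or any single LMNB2 library it was 0, beside 0.157% to 0.652% of all features. The copies of lowest p in the other directions and groups did not pass: in MYH16 (chr7:99242654-99242815) with LMNA 0.98 ± 0.33 (edgeR adjusted p = 0.882), and nearest to LINC01348 (chr1:235056541-235056669) with LMNB1 -1.59 ± 0.53 (edgeR adjusted p = 0.777). The SLC27A2 copy had the lowest p on the higher side with LMNB1, at 0.66 ± 0.21 (edgeR adjusted p = 0.777).

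The 4 Y RNA genes and the other genes with upstream polymerase III promoters gave no call in these contrasts. The genes RNY1, RNY3, RNY4 and RNY5 had log2 fold changes of 0.05 to 0.55 with LMNB2, with a median of 0.41, and 0 of 4 passed (lowest edgeR adjusted p = 0.228, and 2 with an unadjusted p below 0.05). DESeq2 called 0 of them. The list of other such genes was RN7SK, RMRP, RPPH1, RNU6ATAC and the U6 genes RNU6-1, RNU6-2, RNU6-7, RNU6-8 and RNU6-9, which matched 13 intervals. Of these 13, 0 passed the edgeR or DESeq2 test in the LMNA, LMNB1 and LMNB2 small RNA contrasts, with 0, 2 and 0 at an unadjusted p below 0.05. Their median log2 fold change was 0.15 with LMNA, -0.29 with LMNB1 and -0.10 with LMNB2.

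In ATAC the copies' windows, 125 bp wider on each side than the intervals, had few counts. The mean per library ran from 0.333 to 615 counts with a median of 5.75, and 198 copies (22.9%) reached a mean of 10. This measure was not applied to the other 668. A window was called accessible when it held at least 2 times the count density of its own 5 kb flanks, which start 350 bp outside the window, in all 12 libraries. By that measure 10 copies were accessible, 1.15% of all copies and 5.05% of those with a mean of 10 counts. The same measure gave 3 of the 4 Y RNA genes and 1040 of the 16793 other features of at most 250 bp, which is 17.8% of those with a mean of 10 counts. Summed over all copies, the density in the windows was 0.427 to 0.523 times that in the flanks, per library. Without the 2 highest windows it was 0.366 to 0.462, and for the 4 genes it was 3.05 to 3.92. From the means over libraries this ratio was 0.472 for the copies, 1.58 for the other features of at most 250 bp and 0.241 for all other features, many of which are long. The median ratio of single windows with a mean of 10 counts was 0.89 for copies, 1.25 for the other features of at most 250 bp and 1.08 for all other features. No mappability measure was analysed here, and reads that fit several places were handled in a way not given in the sources used here, so a window low in counts cannot be told apart from one to which few reads could be assigned.

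The window with the highest ratio was that of a copy in ZNF787, a zinc finger gene, on the opposite strand (chr19:56105391-56105535). It had 451, 440 and 440 counts with GFP, 505, 459 and 792 with LMNA, 762, 834 and 612 with LMNB1, and 837, 573 and 680 with LMNB2. These are 25.5 to 38.0 times the flank density, with a median of 34.0, and the CPM values of the groups overlapped. Its small RNA mean was 0.417 counts per library. The second, 387 bp from the start of RPL27, a ribosomal protein gene (chr17:42997891-42998032), had 282, 351 and 331 counts with GFP, 431, 354 and 437 with LMNA, 573, 635 and 557 with LMNB1, and 555, 495 and 451 with LMNB2. In CPM, which takes library depth into account, its group means were 1.85 (GFP), 1.90 (LMNA), 2.19 (LMNB1) and 1.84 (LMNB2). The LMNB1 difference of 0.24 ± 0.11 did not pass (edgeR quasi-likelihood adjusted p = 0.978), nor did those of LMNA and LMNB2. Its ratio was 9.74 to 15.2, and this copy also had a mean of 1531 small RNA counts. With flanks of 500 bp its median ratio fell to 2.22, since its nearest flanks were denser than the wider ones. The next were a copy 15059 bp from the start of LOC105374404 (chr4:37699870-37700027) with a median ratio of 6.20, one in OSBPL10 (chr3:32045848-32046004) with 5.57 and one 6299 bp from the start of IFNA21 (chr9:21160210-21160361) with 5.31. A copy nearest to LOC105372747 (chr21:23432156-23432307) had a median of 5.27 but only 1.33 in its lowest library, and so is not among the 10. A copy in CXADR (chr21:17576773-17576931) had 4.57 and one on chromosome 8 (chr8:94713690-94713837) had 4.48. The other 3, outside the rule for naming, were a second copy in CXADR (chr21:17527115-17527272) with 4.38, one nearest to LOC105379047 (chr5:79562720-79562871) with 3.96 and one in NRG2 (chr5:140019467-140019617) with 3.06. The width of the flanks mattered for several of these. With 500 bp flanks the median ratio was 1.61 for the OSBPL10 copy and 1.48 for the first CXADR copy, both under 2, and 32.9 for the ZNF787 copy. With 50 kb flanks it was 15.8 for the ZNF787 copy, 2.19 for the IFNA21 copy and 2.37 for the first CXADR copy.

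**Figure D5:**
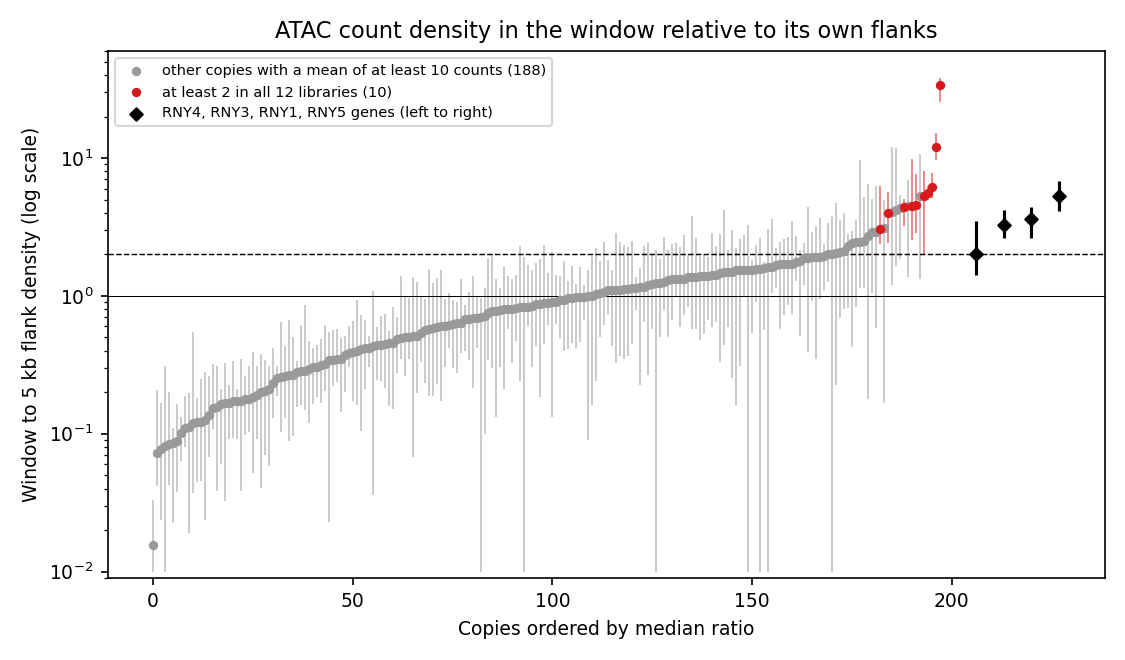
Ratio of ATAC count density in the window to that in its 5 kb flanks, on a log scale, for the 198 copies with a mean of at least 10 counts, ordered by the median over 12 libraries (points), with lines from the lowest to the highest library, cut off at 0.01. Red marks the 10 copies at 2 or above in every library, and the 4 Y RNA genes on the right are at medians of 2.01 to 5.31.

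Of the 10 accessible copies, 3 had a mean of at least 10 small RNA counts, beside 28.8% of all copies. A mean below 1 count was found for 6 of them, and the OSBPL10 copy had 0 counts in all libraries. Of the 19 copies with a mean of at least 1000 small RNA counts, 1 was accessible, the one near RPL27, which is 5.26% of the 19, beside 1.15% of all copies, and 10% of the 10. Only 6 of those 19 had a mean of 10 ATAC counts, so accessibility was measured in few of them. The CCNL1 copy had a mean of 4.25 ATAC counts and a median ratio of 0.78, and RNY4P7 had 13.6 counts and 1.37. Across the 742 copies with counts in both assays, Spearman's rho between the mean CPM of the assays was 0.022, as a description, since the points share their libraries and depth.

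Summed ATAC window levels were 32.0, 34.5 and 35.5 CPM with GFP, 33.1, 32.9 and 32.0 with LMNA, 34.6, 34.0 and 36.3 with LMNB1, and 33.7, 34.6 and 32.3 with LMNB2. All groups overlapped the GFP range, and the log2 differences of -0.06, 0.04 and -0.02 had exact two-sided permutation p-values of 0.4, 0.5 and 0.8 (0.75, 0.75 and 0.8 after Benjamini-Hochberg adjustment over the 3). With library totals in place of trimmed-mean scaling, the sums were 32.5, 30.3 and 32.4 CPM with GFP, 36.5, 36.0 and 39.6 with LMNB1, and 34.5, 34.1 and 32.9 with LMNB2. Each LMNB1 and each LMNB2 library was then above each GFP library, with differences of 0.23 and 0.09 and an exact permutation p of 0.1 for both, the smallest possible. That scaling also moved the median of all windows, from 0.00 to 0.19 with LMNB1 and from 0.00 to 0.11 with LMNB2, beside copy medians of 0.21 and 0.09. The edgeR test was fitted on 163786 windows, of which 363 were copies. It called 0 copies with LMNA, LMNB1 or LMNB2, or among the 4 groups, and DESeq2 called 0 as well. Over all windows, 0.000611%, 0.00305%, 0.00244% and 0.0421% were called in these 4 tests. An unadjusted p below 0.05 was found for 16, 21, 18 and 16 copies, which is 4.41%, 5.79%, 4.96% and 4.41%, beside 5.19%, 4.78%, 5.72% and 5.81% of all windows. Libraries did not overlap GFP for 30, 38 and 43 copies with LMNA, LMNB1 and LMNB2, that is 8.26%, 10.5% and 11.8% of the tested copies, beside 9.55%, 8.46% and 10.3% of all windows.

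Among the accessible copies, the one in CXADR, the gene of the coxsackievirus and adenovirus receptor, had the lowest ATAC p on the higher side with LMNB1. It had 20, 24 and 31 counts with GFP and 72, 89 and 63 with LMNB1, a difference of 0.95 ± 0.26 (edgeR unadjusted p = 0.0011, adjusted p = 0.978). The LMNB1 libraries were above the GFP libraries, and the value did not pass over all windows. The copies of lowest p in the other contrasts had low counts and did not pass. The one nearest to DDX3X (chrX:41316463-41316614) was at 1.95 ± 0.64 with LMNB2 (edgeR adjusted p = 0.853), and the one in MIIP (chr1:12023987-12024149) at -2.02 ± 0.60 (edgeR adjusted p = 0.818). With LMNA the one nearest to GCNT3 (chr15:59575603-59575748) was at 2.49 ± 0.83 (edgeR adjusted p = 0.874) and the one in SPAG1 (chr8:100158843-100159000) at -1.44 ± 0.47 (edgeR adjusted p = 0.868). With LMNB1 the one in L1TD1 (chr1:62211532-62211691) was at -1.90 ± 0.74 (edgeR adjusted p = 0.978).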

How the data were processed

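Both deposited tables held raw counts per annotated feature and library, on GRCh38 per the submitters' processing notes. The aligner, the counting rule and the use of strand, duplicates and reads that fit several places were not given in the sources used here. Totals over all features were 132507051 to 195074742 counts per small RNA library and 156043245 to 290158229 per ATAC library. Each small RNA row was joined to its ATAC window through the row identifier. Groups came from the sample labels. Counts were tested with edgeR 4.0.16 (R 4.3.3; filterByExpr, trimmed-mean (TMM) scaling, robust quasi-likelihood fit, 1 mean per group over the 12 libraries of an assay), with Benjamini-Hochberg adjustment over all tested features. Standard errors are the log2 fold change divided by the square root of its F value. CPM values use the TMM-scaled library sizes. Levels are log2 CPM relative to the copy's GFP mean, with the CPM of 2 counts added, and the median is taken over the tested copies. Summed CPM was compared by exact permutation. DESeq2 1.42.0 and the alternatives in the closing section were also run. The edgeR fit was tested on simulated data. RefSeq names, gene extents and start sites are those of GRCh38.p14.

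The named copies are the 8 with the highest CPM per kb, the 8 with the highest ATAC ratio at a mean of at least 10 counts, all called copies, those of lowest p in each direction, and those nearest the length limit. The copies and lists were chosen with earlier results of these data known. No Y RNA sequence is printed, because no genome was used here.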

Additional observations from a re-analysis of the deposited data

Results flagged for a closer look

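The small RNA level of the copy nearest to SOS1 lay on opposite sides of the GFP mean in different lamin groups. Against the GFP mean, its mean level was 0.178 with LMNA (0.124 to 0.279 over the 3 libraries) and -0.589 with LMNB1 (-1.19 to -0.217) on the log2 scale. With LMNB2 it was -1.20 (-1.34 to -1.04), beside the same 0.178 with LMNA. These values rest on 5 to 20 counts per library and share the GFP libraries, and the differences between lamin groups were not tested. The LMNA libraries, at 0.110 to 0.124 CPM, lie within the GFP range of 0.0808 to 0.137 CPM, and neither LMNA nor LMNB1 passed the edgeR test (adjusted p = 0.975 and 0.861).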

How the results depend on the processing

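The count of copies called with LMNB2 (7) was 0 with library totals, with only the libraries compared and at an adjusted p of 0.01, and 42 without the filter on low counts, of which 7 were the same copies (5.66% of the tested copies and 1.16% of all features). The count for any difference among the 4 groups (1) was 0 with library totals and at an adjusted p of 0.01, 41 without the filter (1.51% of all features) and 5 with DESeq2. Without the filter 1 copy was called with LMNA and 5 with LMNB1, of 742 tested. Leaving out 1 library at a time gave 0 to 24 calls with LMNB2, 0 to 21 for the 4 groups and 0 to 3 with LMNA. For these LMNA and LMNB1 counts the share over all features is not given here, so they are not a result about the copies. Of 18 correlations between libraries with the same replicate number, 2 in each assay were over 0.1 (highest 0.23 in small RNA and 0.19 in ATAC). Their median was 0.025 in small RNA, beside -0.017 for pairs with different numbers, and 0.0070 in ATAC, beside -0.0016. Whether the numbers pair the samples was not tested, and the labels do not say. With the replicate number as a block, 12 copies were called with LMNB2 (2.15% of all features) and 7 for the 4 groups (1.37%), and 8 of 12 small RNA and 6 of 12 ATAC libraries correlated best with their own number. The LMNB2 calls kept their direction under all 20 alternatives, but each lost its call under 5 (NRDC) to 15 (SOS1) of them. These alternatives reuse the libraries that gave the calls, so the kept direction is not separate support. Without the 10 copies of highest sum, the summed small RNA differences turned to -0.0097 (LMNA), -0.0532 (LMNB1) and -0.285 (LMNB2). The LMNB1 sum ranged from -0.0329 to 0.237 and the ATAC sum with LMNB2 from -0.0617 to 0.0125 when 1 library was left out. With library totals the ATAC sums turned to 0.0338 (LMNA) and 0.094 (LMNB2), and that of LMNB1 went from 0.0428 to 0.235. Copies counted in every library (347) numbered 174 at 10 counts or more and 217 without overlap with other features. Accessible copies (10) numbered 5 at a ratio of 3, 4 with 500 bp flanks and 6 without overlap. The cause was not tested. ATAC calls stayed at 0 in every alternative run.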
